A study of Homo sapiens with 4 samples.

Results

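The HOX genes are 39 protein-coding genes that lie in 4 clusters, HOXA (11 genes), HOXB (10), HOXC (9) and HOXD (9), out of 20176 protein-coding genes in the annotation. Their chromatin loops and contact domains were taken from Hi-C maps of MDA-MB-231 cells, an established human triple negative breast cancer line of wild-type genotype. Hi-C joins and sequences pieces of DNA that lie close together in the nucleus. The vehicle group received DMSO for 48 h and the other group received 75 nM THZ1 for 48 h, a covalent inhibitor of the transcription kinase CDK7, and each group had 2 libraries. Both groups are the same unedited line, and the labels give no separate cultures for the libraries of a group, so the p-values measure only the spread between these libraries, which may be technical.

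A loop was counted as a HOX loop when an anchor overlapped a window around a cluster on GRCh37 (hg19), at chr7:27000000-27400000 for HOXA, chr17:46500000-46900000 for HOXB, chr12:54200000-54600000 for HOXC and chr2:176700000-177200000 for HOXD. A loop here is a pair of 5 kb, 10 kb or 25 kb bins that the HiCCUPS caller found to touch more often than the surrounding bins. By this rule 42 and 43 loops of the vehicle libraries (of 20768 and 24219) and 37 and 36 loops of the THZ1 libraries (of 17222 and 15066) were HOX loops, 158 of 77275 in all. Contact domains, squares of raised contact found by Arrowhead at 10 kb, overlapped a window 2 and 2 times with vehicle and 5 and 5 times with THZ1, 14 of 7418 in all. Sequencing depth could not be read from these lists, which hold only called features, and gene expression was not measured in them. A loop missing from a list is a loop that was not called there, and in a bulk map fewer cells with a contact and weaker contact in every cell cannot be told apart.

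HOX proteins are homeodomain transcription factors that give cells their position along the body axis. Their genes lie in the same transcriptional direction within a cluster, in an order that matches where along the axis they act, from group 1 at the anterior end to group 13 at the posterior end, and gene-free regions on both sides of some clusters hold enhancers that reach them by looping. CTCF, a zinc-finger protein, and cohesin hold many such loops, usually with the CTCF motifs of the anchors pointing towards each other.

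The stretches below show CTCF core matches at the anchors of recurrent HOX loops. Each holds a match to the 12-letter CTCF core, in capitals, with 9 bases on both sides, written 5′ to 3′ on the strand of the motif from the GRCh37 genome. The first set comes from loop groups called in all 4 libraries, at most 3 matches per cluster, and no HOXC group called in all 4 libraries had a core match. The called anchor can differ by a bin between libraries, so a match need not lie in the anchor of each one. Those in TAX1BP1 and at HOXB lay in an anchor in all 4 libraries and the other 3 in 3.

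SKAP2 intron, 10 kb left anchor of a loop to HOXA3 in THZ1 2 and of the 480 kb loop to the HOXA9 bin in vehicle 2 and THZ1 1, chr7:26721604-26721633, plus strand: cattctgagCCACTAGATGGCgtaaaaaaa
TAX1BP1 intron, right anchor of the loop from HOXA13, chr7:27824239-27824268, minus strand: aacttttctCCACCAGGGGGCaggcaagaa
Intergenic, right anchor of loops from HOXB and TTLL6, chr17:46955693-46955722, minus strand: caatactccCCACCAGAGGGCtcaggactc
Intergenic, right anchor of the 310 kb loop from HOXD3 in vehicle 1 and both THZ1 libraries, chr2:177319822-177319851, minus strand: aaagagtccCCAGCAGGGGGCacccttttg
No protein-coding gene, right anchor of the 1020 kb loop from HOXD8 in both vehicle libraries and THZ1 2, chr2:178013817-178013846, minus strand: caatagaatCCACTAGGTGGCgcccaggtc

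Inside the gene clusters the core itself matched at only 1 site in the loop anchors, between HOXA7 and HOXA9. The 3 further stretches are matches with 1 free letter in anchors that lie on HOX genes and were used in all 4 libraries. These 4 were chosen after their values were seen.

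HOXA7 to HOXA9, right anchor, chr7:27200748-27200777, minus strand: aaacggcggCCAGCAGATGGCagtgtggct
Beside HOXB9, right anchor, chr17:46696099-46696128, minus strand: gcagagcagCCGCTAGATGGCacccttgct
HOXD13 to HOXD12, right anchor, chr2:176962478-176962507, minus strand: gcccaatgcCCAGGAGATGGCgagcgcgct
HOXD9 to HOXD8, nearer to HOXD9, left anchor, chr2:176990577-176990606, minus strand: acgtctggcCCGCTAGATGGCtttatgaca

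The right anchors in these lists carried matches on the minus strand, pointing left into the loop. The exception among the printed stretches is that between HOXD9 and HOXD8, in a left anchor whose match is also on the minus strand and points away from its loop. Searched on both strands, the core was found in 12 of 122 distinct HOX anchors (9.84%), against 13.5% of all 61322 loop anchors. Among 5 kb anchors it was found in 4 of 61 (6.56%), against 9.66% of all 5 kb loop anchors and 1.86% of all 5 kb bins of the genome. Of the HOX anchors on the right side of a loop, 10 had the core on the minus strand and 0 on the plus strand. Left anchors had it on each strand once. Anchors of different width can cover the same match, so these are counts of anchors and include some sites more than once. Over all loops, 77.1% of right-side matches were on the minus strand and 78.1% of left-side matches on the plus strand. With any letter allowed at 1 of positions 1 to 5, 8 and 9 of the core, a setting added after the anchors were seen, 58 of 122 HOX anchors had a match (47.5%, against 39.5% of all loop anchors). A match is a stretch of letters and not a measured CTCF site.

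Loops left the clusters in opposite directions from separate places, and this was so in all 4 clusters. For loops with 1 anchor on the gene span, from the first to the last HOX gene, the anchors of loops to lower coordinates lay entirely below those of loops to higher coordinates when compared by midpoint over the 4 libraries.

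**Figure D1:**
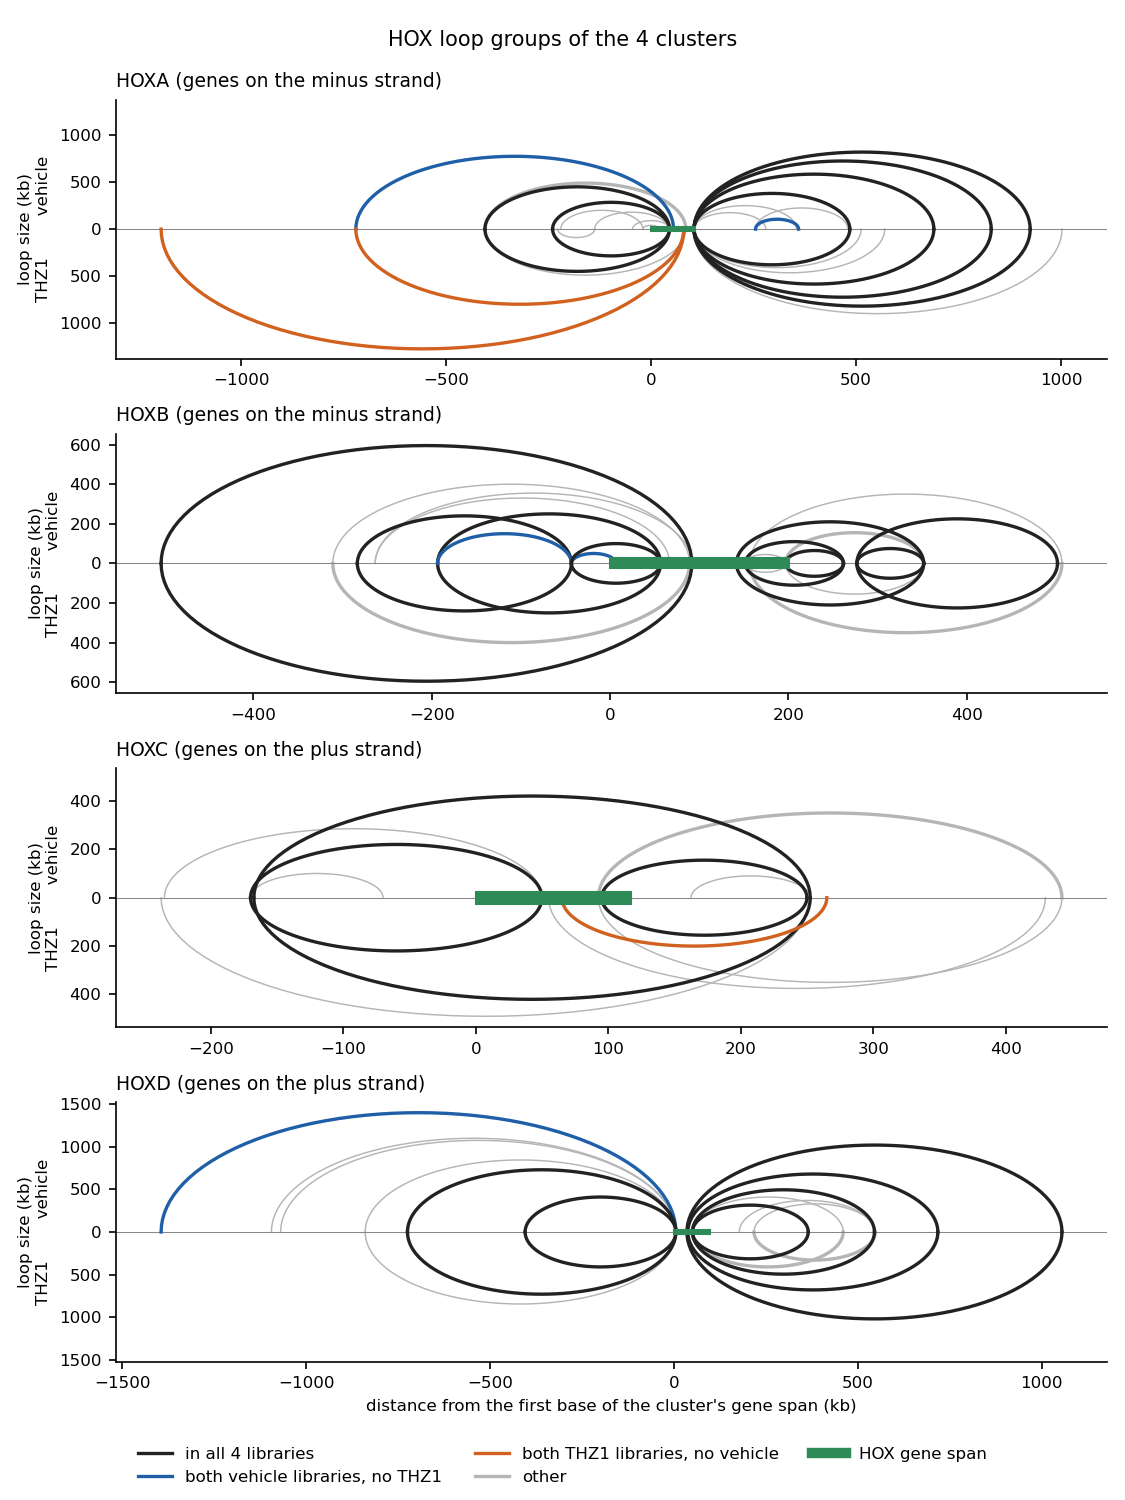
Loop groups at the 4 HOX clusters, with distance from the first base of the gene span on the x axis (kb) and loop size as the arc height on the y axis (kb, vehicle above the line and THZ1 below). Thick arcs were called in both libraries of the condition and thin arcs in 1. Arcs to the left and to the right start from different places on each green gene span, and 24 of the 62 groups are black, called in all 4 libraries.

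At HOXA, whose genes run on the minus strand with the anterior genes at the lower coordinates, 20 loops went to lower coordinates from anchors with midpoints between 27152500 and 27217500, on HOXA3 to HOXA10. Another 20 went to higher coordinates from midpoints between 27235000 and 27237500, all on HOXA13, a gene of distal limb and genitourinary development. At HOXD, on the plus strand, 14 loops went to lower coordinates from midpoints between 176962500 and 176965000, between HOXD13 and HOXD12, the digit genes. A further 19 went to higher coordinates from midpoints between 176987500 and 177007500, on HOXD9, HOXD8 and HOXD3. At HOXA the HOXA13 end was thus joined to one side and genes from HOXA3 to HOXA11 to the other. At HOXD the anchor between HOXD13 and HOXD12 was joined to one side and HOXD9, HOXD8 and HOXD3 to the other. The 25 kb bins of HOXD loops in both directions also overlapped HOXD10.

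HOXB had 19 loops to lower coordinates, with midpoints from 46612500 to 46697500, up to HOXB9. Another 18 went to higher coordinates, with midpoints from 46747500 to 46802500, between HOXB9 and HOXB13 or on HOXB13. HOXC had 5 to lower coordinates from midpoints of 54382500 to 54385000, on HOXC10, and 10 to higher coordinates from midpoints of 54387500 to 54427500, on HOXC9 to HOXC5. The HOXC gap is the narrowest, and the 25 kb bin of 1 THZ1 loop overlapped the HOXC10 anchor. Only 2 loops, both at HOXB, had both anchors on the gene span. When anchors were placed by the whole window in place of the gene span, the ranges still did not overlap at HOXA, HOXB and HOXD but did overlap at HOXC. This description by direction was added after the loops were seen and has no test.

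The number of HOX loops was lower in each THZ1 library than in each vehicle library, while HOX loops made up a larger part of the THZ1 lists. The 42 and 43 loops with vehicle averaged 42.5 ± 0.707 (SD, n = 2) and the 37 and 36 with THZ1 36.5 ± 0.707 (SD, n = 2), a log2 change of −0.22. The exact two-sided permutation test gave p = 0.333, the smallest p that 2 libraries against 2 allow. All loops went from 22494 ± 2440 to 16144 ± 1525 (SD, n = 2), a log2 change of −0.48. Per 1000 loops of a list, HOX loops numbered 2.02 and 1.78 with vehicle against 2.15 and 2.39 with THZ1, which do not overlap (exact permutation p = 0.333, again the smallest).

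Loop number had similar log2 changes at HOXA (−0.25), HOXB (−0.27) and HOXD (−0.23), and a change of 0 at HOXC. HOXA had 11 and 14 loops with vehicle against 11 and 10 with THZ1, which overlap. HOXB had 16 and 13 against 12 and 12, and HOXD 10 and 10 against 8 and 9, each lower in both THZ1 libraries. HOXC, the cluster with the fewest loops, had 5 and 6 against 6 and 5. Between clusters, 6 pairs of log2 changes were compared, with an adjusted exact permutation p of 1.00 for each pair, in a design where no pair could pass. Genome tiles of 400 kb that held a loop had a median of 5, 6, 4 and 4 loops in the vehicle and THZ1 libraries, in the order vehicle 1 and 2, then THZ1 1 and 2. The HOXA and HOXB windows, of the same length, thus each held more loops than the median tile in each library. HOXC, also of this length, did so in the THZ1 libraries only. Tiles counted loops by anchor midpoint and windows by any anchor overlap.

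**Figure D2:**
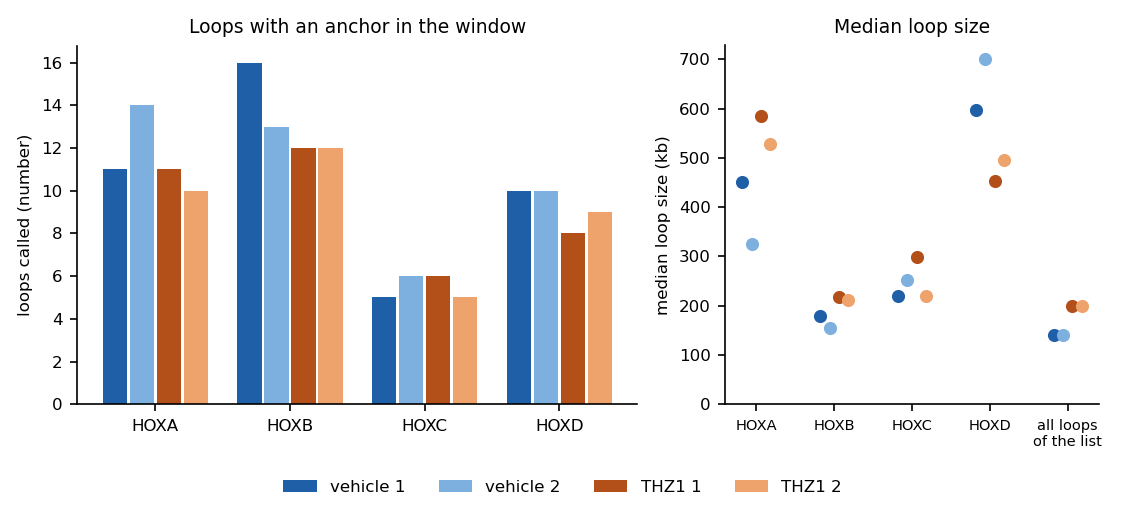
Number of loops with an anchor in each HOX window (bars, left) and median loop size in kb (points, right), by library. HOXB and HOXD have fewer loops in both THZ1 libraries, and median size is higher with THZ1 at HOXA and HOXB and lower at HOXD.

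HOX loops were long. Their median size was 330 and 285 kb with vehicle and 380 and 390 kb with THZ1, against 140 and 140 kb and 200 and 200 kb over all loops. HOXB was nearest to all loops, with medians of 180 and 155 kb with vehicle and 218 and 212 kb with THZ1. At HOXA the medians were 450 and 325 kb with vehicle and 585 and 528 kb with THZ1. At HOXD they were 598 and 700 kb with vehicle and 452 and 495 kb with THZ1, the opposite order. The longest HOX loops also differed by cluster. At HOXD they were 1400 kb in both vehicle libraries and 1035 and 1020 kb with THZ1, whereas at HOXA they were 820 and 840 kb with vehicle and 1275 kb in both THZ1 libraries. Each of these comparisons had an exact permutation p of 0.333. With only 5 kb anchors the HOXD median was larger with THZ1, by 58.8 kb, and with only 10 kb anchors by 60.0 kb.

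Loops of 90 kb or less were a small part of the HOX loops. They were 6 of 42 (14.3%, 95% Wilson interval 6.72 to 27.8%) and 4 of 43 (9.30%, 3.68 to 21.6%) with vehicle, and 4 of 37 (10.8%, 4.29 to 24.7%) and 2 of 36 (5.56%, 1.54 to 18.1%) with THZ1. These intervals cover counting error only, and the groups overlap. Over all loops the share was 37.3 and 36.8% with vehicle and 26.2 and 25.5% with THZ1. HOXB held 4 and 3 of the small loops with vehicle and 3 and 2 with THZ1. These were 25 and 23.1% of its loops with vehicle and 25 and 16.7% with THZ1. HOXD had no loop of this size in any library.

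Loops that recur across lists were joined into groups when both anchor midpoints lay within 20 kb, which gave 62 HOX groups of 33552. Of these 24 were called in all 4 libraries (38.7%, against 26.1% of all groups), made up of 6 of 22 at HOXA, 9 of 17 at HOXB, 3 of 10 at HOXC and 6 of 13 at HOXD. Both vehicle libraries and neither THZ1 library called 5 HOX groups (8.06%), against 9.67% of all groups. Both THZ1 libraries and neither vehicle library called 3 (4.84%), against 2.24% of all groups. The first share is near its background, and the second rests on 3 groups. The 2 THZ1 libraries shared 31 HOX groups, 83.8 and 86.1% of their own, against 64.9 and 74.0% over all loops. The 2 vehicle libraries shared 32, 76.2 and 74.4% of theirs, against 75.0 and 64.4% over all loops.

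The loops of the HOXA13 end were the most regular at HOXA. From the HOXA13 anchor they ran to HIBADH, which encodes a mitochondrial enzyme of valine breakdown, to TAX1BP1, an autophagy receptor gene, and to 2 places in JAZF1, a zinc-finger gene, 380 to 820 kb away. The 380 kb loop to HIBADH had 32 and 25 observed contacts with vehicle and 41 and 34 with THZ1, higher in both THZ1 libraries, at ratios of observed to expected contacts of 11.2, 7.54, 9.76 and 8.26, which overlap. Expected contacts are the caller's estimate from the ring of bins around the loop, the donut. On the other side, a loop joined SKAP2, an adaptor protein gene, to HOXA3 in all 4 libraries, with 14, 16 and 22 contacts at 5 kb in both vehicle libraries and the first THZ1 library and 34 at 10 kb in the second. HOTTIP, a long noncoding RNA gene beside HOXA13, shared the HOXA13 anchors, with 5, 5, 5 and 6 loops.

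Farther out, HOXA had condition-only groups at 25 kb. A loop from SNX10, a sorting nexin gene, to the 25 kb bin with HOXA5, HOXA6, HOXA7 and the upstream part of HOXA3 had 36 and 30 contacts and was called only with vehicle. A loop from the same SNX10 bin to the next bin, with HOXA9, HOXA10 and HOXA11, had 52 and 45 contacts and was called only with THZ1. The second anchors are adjacent 25 kb bins, so this is a shift of the called pixel by 1 bin, and with a tolerance of 50 kb the pair counts as 1 loop. A 1275 kb loop from a bin nearest to NFE2L3 to that same HOXA9 to HOXA11 bin had 27 and 22 contacts with THZ1 and was not called with vehicle. The last vehicle-only group at HOXA lay between EVX1 and HIBADH, 105 kb apart, and touched no HOX gene.

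At HOXC the 3 stable groups joined a bin nearest to CALCOCO1 to HOXC10 (220 kb), that place to SMUG1, a uracil-DNA glycosylase gene, across the whole cluster (420 kb), and HOXC5 to SMUG1 (155 kb). The HOXC10 loop had 28, 18 and 24 contacts at 5 kb in vehicle 1 and 2 and THZ1 2, and 34 at 10 kb in THZ1 1. The THZ1-only group ran to a bin nearest to SMUG1, 200 kb away, from the bin with HOXC8 and part of HOXC6 in THZ1 1 (17 contacts, ratio 8.48) and from the adjacent bin on HOXC9 in THZ1 2 (18 contacts, ratio 9.61).

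At HOXB the 2 vehicle-only groups both used the anchor at chr17:46560001-46565000, which lies beyond HOXB1. One joined it to SKAP1, an adaptor gene of T cells, 150 kb away, with 43 contacts at 10 kb and 33 at 5 kb. The other joined it to the bin between HOXB1 and HOXB2, 50 kb away, with 33 and 31 contacts. The same anchor kept its loop to HOXB3 in all 4 libraries. The longest stable HOXB loop, of 595 kb, joined COPZ2, a coatomer gene, to HOXB9. At HOXD the vehicle-only group was the 1400 kb loop from a bin nearest to WIPF1 to the HOXD13 to HOXD10 bin with 19 and 18 contacts.

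Of the 39 HOX genes, 29 had a loop anchor on the gene body in at least 1 library (74.4%, against 71.3% of all protein-coding genes) and 14 in every library (35.9%, against 39.4%), shares near those of all genes. Genes with none in any library included HOXA2, HOXB1, HOXB2, HOXB4, HOXC11, HOXC12, HOXC13, HOXD1 and HOXD4. These lie at the posterior end of HOXC and among the anterior genes of the other clusters. HOTAIR, the long noncoding RNA gene between HOXC12 and HOXC11, also had none, nor had EVX1, EVX2 and HOTAIRM1.

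**Figure D3:**
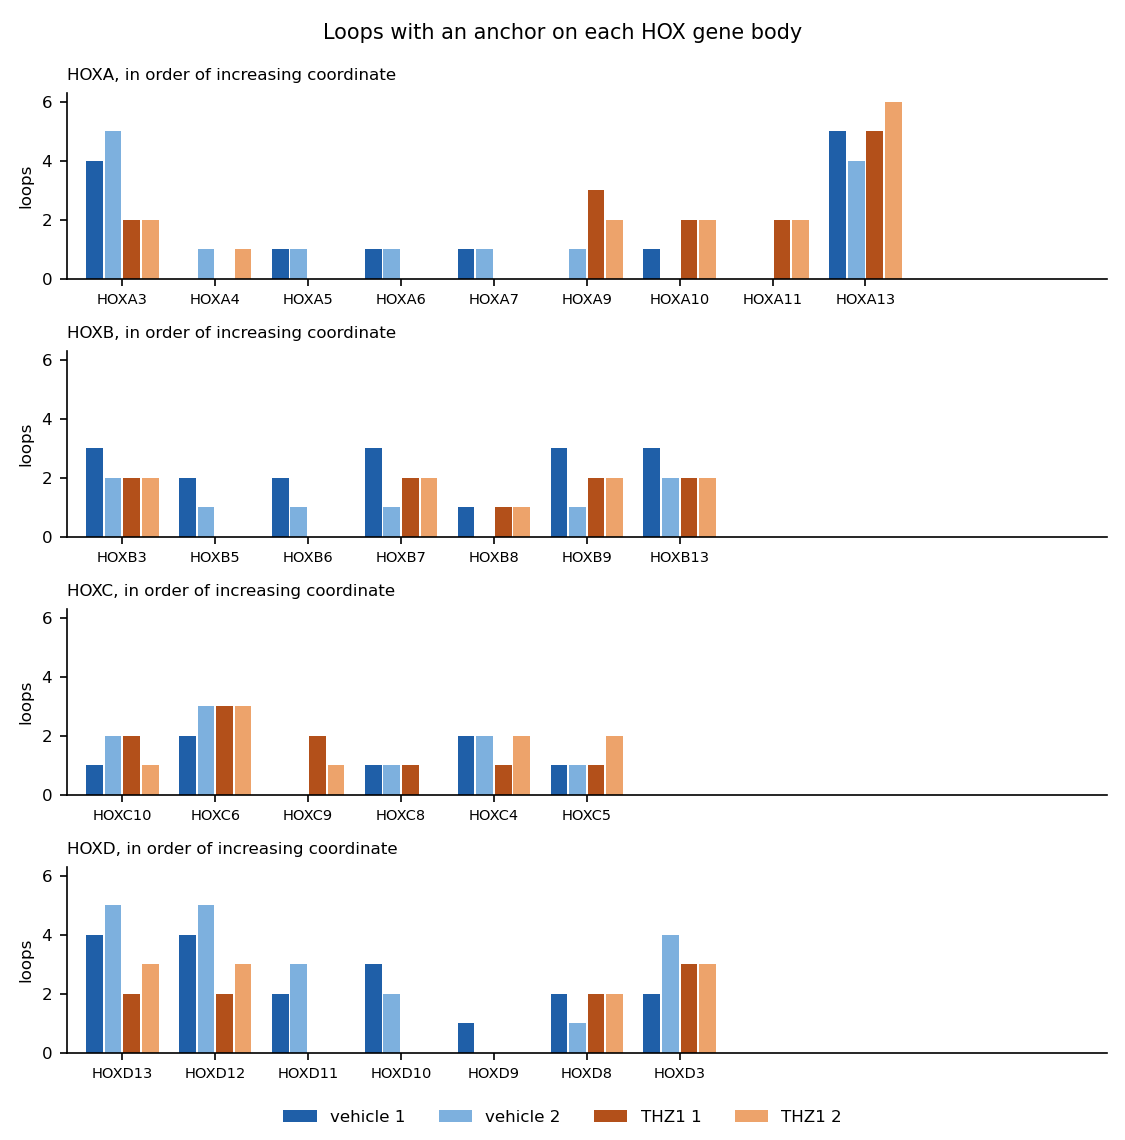
Loops with an anchor on the body of each of the 29 HOX genes that had an anchor in at least 1 library, by library (bars), with genes in order of coordinate. HOXA13, HOXD13 and HOXD12 have the most loops summed over the libraries, and HOXA5 to HOXA11 show the move from vehicle to THZ1 bars between neighbouring genes.

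HOXA13 had 5 and 4 loops with vehicle and 5 and 6 with THZ1, which overlap, and had the most of any HOX gene summed over the 4 libraries and in each THZ1 library. HOXD13 and HOXD12, which share their anchor, each had 4 and 5 with vehicle and 2 and 3 with THZ1. HOXA3 had 4 and 5 with vehicle and 2 and 2 with THZ1. HOXD11 had 2 and 3 against 0 and 0, and HOXD10 3 and 2 against 0 and 0. The HOXD11 and HOXD10 loops of the vehicle libraries came mostly from 25 kb bins, which span several genes.

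More loops in each vehicle library than in each THZ1 library were counted for 10 HOX genes, against 17.4% of all protein-coding genes. They were HOXA3, HOXA5, HOXA6, HOXA7, HOXB5, HOXB6, HOXD13, HOXD12, HOXD11 and HOXD10. HOXA5, HOXA6 and HOXA7 are listed through the SNX10 loop that shifted by 1 bin. In vehicle 2 the only loop on HOXB5 and HOXB6 came from SKAP1. That loop was called in all 4 libraries, but its HOXB anchor was chr17:46670001-46675000 with vehicle and 46660001-46665000 with THZ1. Loops with 25 kb bins on HOXD13 and HOXD12 were called with vehicle only. More loops in each THZ1 library were counted for 4 HOX genes, HOXA9, HOXA10, HOXA11 and HOXC9, against 2.47% of all protein-coding genes. HOXA9 had 0 and 1 with vehicle and 3 and 2 with THZ1, HOXA10 had 1 and 0 against 2 and 2, and HOXA11 had 0 and 0 against 2 and 2. HOXA9 and HOXA10 are known for their part in blood cell growth and leukaemia. These 3 genes lie in the same 25 kb bin and their loops are largely the same loops. With only 5 kb anchors the counts were 3 genes with vehicle and 1 with THZ1, and with only 10 kb anchors 0 and 2.

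Domains changed in number more than loops did. There were 2 and 2 domains over the HOX windows with vehicle and 5 and 5 with THZ1, a log2 change of 1.32, against 1198 and 1398 and 2477 and 2345 over the genome, a log2 change of 0.89 (exact permutation p = 0.333 for each). The HOXD domain was called in all 4 libraries, from chr2:176200001 or 176210001 to 176960000, 750 or 760 kb long, and ended on HOXD13 each time. Its corner score, Arrowhead's measure of how sharply the domain stands out, was 0.601 and 0.654 with vehicle and 0.936 and 0.938 with THZ1, which do not overlap. Among 475 domain groups called in all 4 libraries the score was higher in each THZ1 library for 48.2%. The HOXD change of 0.31 compared with a median of 0.057, and 9.89% of these groups had a larger change.

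**Figure D4:**
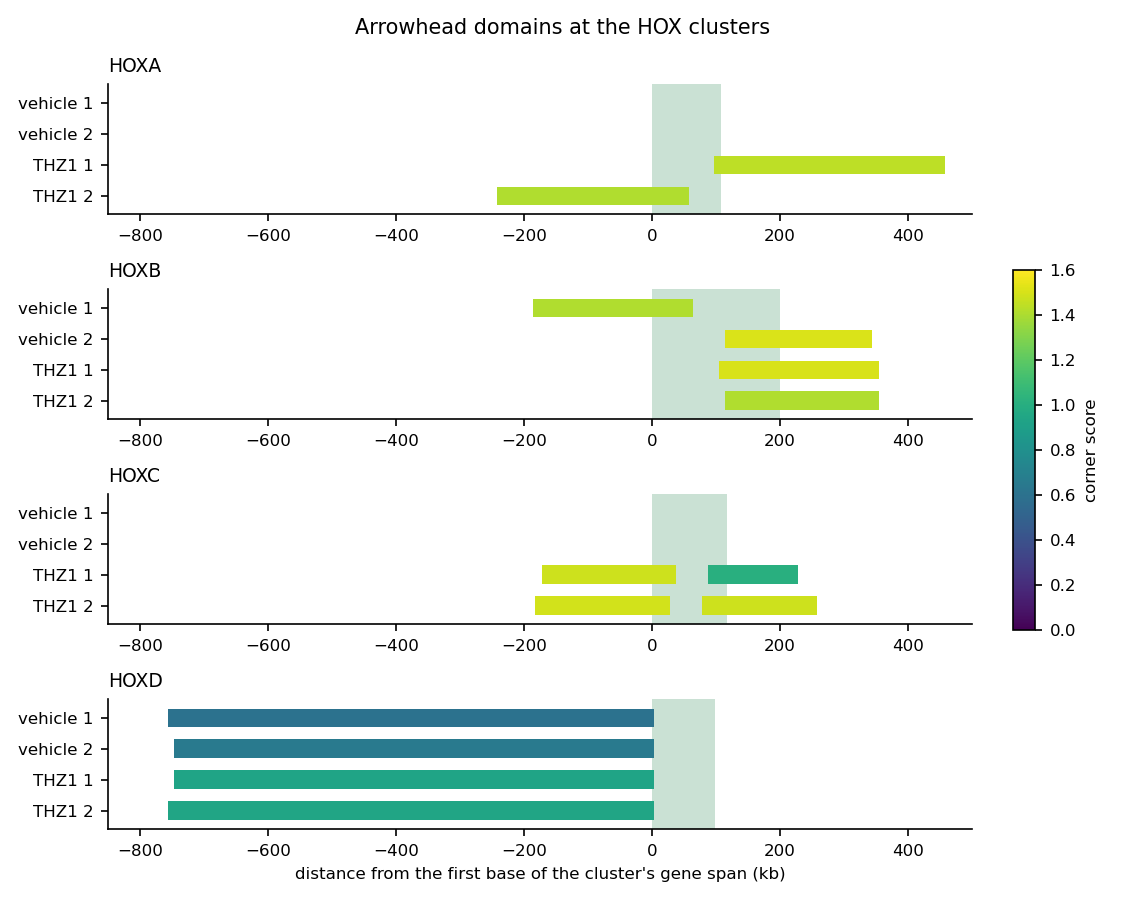
Arrowhead domains over the HOX windows by library (bars, coloured by corner score), with distance from the first base of the gene span in kb and the gene span shaded green. The HOXD bar is in all 4 libraries and HOXA and HOXC bars appear with THZ1 only.

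At HOXC, vehicle libraries had no domain and each THZ1 library had 2. The first, at 54160001 to 54370000 and 54150001 to 54360000 on chromosome 12, ended at or beside HOXC11 and was called in both THZ1 libraries and neither vehicle library, as were 17.9% of all domain groups. The second began in HOXC6 and ended at 54560000 in one library and 54590000 in the other, too far apart to be matched at 20 kb. HOXA had 1 domain in each THZ1 library and none with vehicle, but the pair were different domains. That of THZ1 1 ran from beside HOXA13 to HIBADH and that of THZ1 2 from SKAP2 to HOXA6. HOXB had 1 domain in each library, of 230 to 250 kb, on the HOXB13 side in vehicle 2 and both THZ1 libraries and on the SKAP1 side in vehicle 1. The ends of these domains on the gene spans lay at HOXA6, HOXA13, HOXB5, HOXB7, HOXC11, HOXC6 and HOXD13.

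Loop strength was compared for loops with identical anchors in all 4 lists, as observed contacts relative to the donut expected value, by edgeR's quasi-likelihood test over 2623 loops. Of these, 7 were HOX loops and 2 of the 7 passed at an adjusted p of 0.05, both lower with THZ1, against 24.7% of all tested loops. Over all tested loops 648 were lower and 2 higher, and the median log2 change was −0.41. The median of the 7 HOX loops was −0.65, and all 7 were below 0.

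The first of the 2 joined the HOXB13 and PRAC2 anchor to TTLL6, a tubulin polyglutamylase gene, 65 kb apart. HOXB13 is known as a prostate lineage factor. Observed contacts were 34 and 43 with vehicle against 34 and 26 with THZ1, and the ratios to expected were 7.70 and 8.68 against 5.16 and 4.53. These ratios do not overlap, and the log2 change was −0.75 (SE 0.26 as implied by the p-value, edgeR adjusted p = 0.0237).

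The second joined a HOXD3 intron to a bin 495 kb away on the MTX2 side. Observed contacts were 52 and 51 with vehicle and 46 and 54 with THZ1, which overlap, while the ratios were 15.7 and 18.6 against 9.96 and 11.6, which do not. Its log2 change was −0.65 (SE 0.22, edgeR adjusted p = 0.0202). It was the strongest of the 7 by contacts in both conditions.

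The other 5 did not pass. The loop beyond HOXB1 to HOXB3 had ratios of 4.92 and 6.79 against 4.56 and 2.90, with a log2 change of −0.67 (edgeR adjusted p = 0.0637). The 730 kb loop that ends between HOXD13 and HOXD12 had ratios of 19.3 and 20.3 against 8.70 and 16.8 (edgeR adjusted p = 0.103), and the 410 kb loop to the same anchor 9.44 and 10.8 against 6.59 and 8.99 (edgeR adjusted p = 0.291). The COPZ2 to HOXB9 loop had 13.2 and 17.9 against 12.7 and 12.9 (edgeR adjusted p = 0.585). The HOXA13 to JAZF1 loop of 725 kb, the only one of the 7 whose ratios overlap, had 9.25 and 11.3 against 8.77 and 9.27 (edgeR adjusted p = 0.664). Ratios lower in each THZ1 library than in each vehicle library were thus seen in 6 of the 7, against 68.7% of all tested loops.

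**Figure D5:**
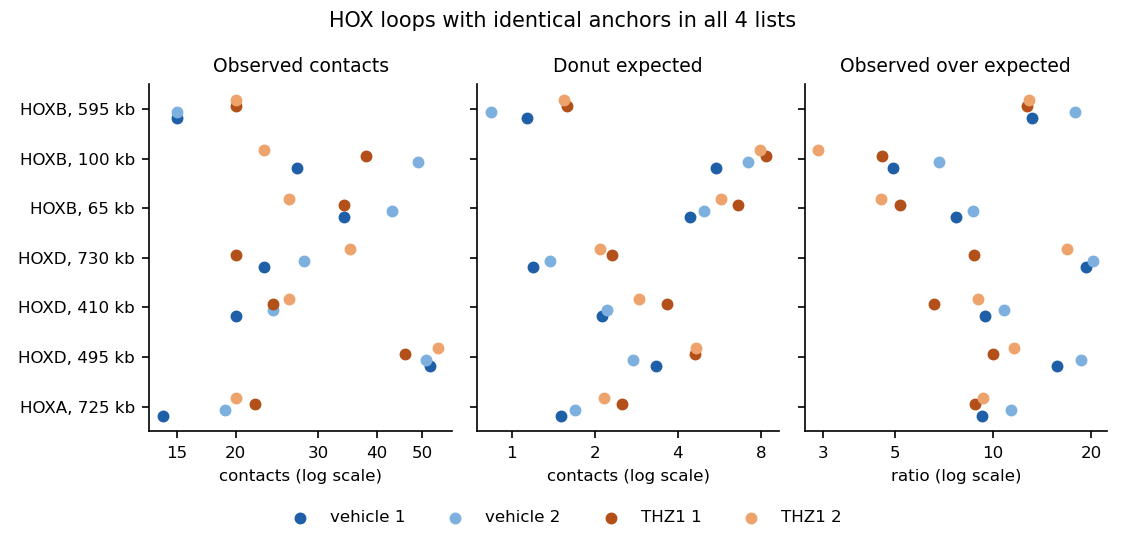
Observed contacts, donut expected contacts and their ratio for the 7 HOX loops with identical anchors in all 4 lists, by library (points, log axes). Expected values are higher with THZ1 in every row, while observed contacts show no common direction.

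The lower ratios went with higher expected values. The median log2 change of the donut expected value was 0.59 over the 7 HOX loops and 0.40 over all tested loops, and that of the observed contacts was 0.11 and −0.02. With no expected value in the test, on observed contacts scaled by TMM, none of the 7 HOX loops passed in edgeR, 0 had an unadjusted p under 0.05, and their median log2 change was 0.12. With DESeq2 and no expected value none passed either. With expected values DESeq2 gave an adjusted p to only 1 HOX loop, that of 495 kb from HOXD3 (DESeq2 adjusted p = 0.171). The other HOX loops could not pass there. None passed in edgeR when any 1 library was left out, where 2 to 3 of the 7 had an unadjusted p under 0.05 and 0 loops of the genome were called lower. With loops matched within 20 kb at the same anchor width, 17 HOX loops could be tested and 5 were lower, against 12.1% of the 5020 loops tested, with a HOX median of −0.55.

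Those 5 were the 2 already named and 3 more, all at HOXB. The SKAP1 to HOXB3 loop of 250 to 260 kb had a log2 change of −0.87 (edgeR adjusted p = 0.0215). Its HOXB anchor was chr17:46670001-46675000 in both vehicle libraries and 46660001-46665000 in both THZ1 libraries. The expected values, 5.99 and 6.28 against 14.2 and 11.7, are thus of different bins. The 110 to 120 kb loop from a bin between HOXB9 and HOXB13 to TTLL6 had −0.92 (edgeR adjusted p = 0.0288). The 65 to 75 kb loop from TTLL6 to the intergenic anchor printed above had −0.67 (edgeR adjusted p = 0.0387). In both of these loops the left anchor also differed by bins between libraries, so not all of their values are of the same bins. By cluster, HOXB had 4 of 8 matched loops lower, HOXD 1 of 5, HOXC 0 of 1 and HOXA 0 of 3, and the difference between clusters was not tested. Another loop from SKAP2 to HOXA3, of 275 to 285 kb where the one described above spans 450 kb, had the only log2 change above 0. It was 0.28 (edgeR adjusted p = 0.531).

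Genes that act with HOX proteins or set their expression were counted the same way. The 9 cofactor genes of the TALE class had 17 and 21 loops with vehicle and 15 and 17 with THZ1, which overlap, and the 16 chromatin regulator genes 37 and 36 against 32 and 21. All loops of the lists were also fewer with THZ1 (log2 change −0.48). More loops in each vehicle library were counted for 1 of the 9 cofactor genes and 2 of the 16 regulator genes, against 17.4% of all protein-coding genes. More in each THZ1 library were counted for 0 and 1, against 2.47%. These are few genes to set against those shares. PKNOX1, a cofactor gene, had 1 and 2 loops with vehicle and 0 and 0 with THZ1. Among the regulators EZH2, the Polycomb methyltransferase gene, had 4 and 4 against 2 and 2, and MEN1 2 and 4 against 1 and 1. By contrast KDM6A, a demethylase gene, had 0 and 0 against 3 and 1. At the start site alone EZH2 had 2 loops in each library and KDM6A 0 and 0 against 2 and 0. The counts of PKNOX1 and MEN1 were the same there as on the gene body. Only 4 loops of these genes were in the strength test, and 1 passed (against 24.7% of all tested loops, near that share), at KMT2A, a histone methyltransferase gene that keeps HOX genes active, with a log2 change of −0.73.

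The authors' tables of loops unique to a condition, made from pooled libraries, were used for positions only. They held 4 HOX loops of 989 in the vehicle table, 3 at HOXB and 1 at HOXD, and 0 of 177 in the THZ1 table. The 4 were 35 to 120 kb long, and none was within 20 kb of a loop called in a single library. One of them reached HOXB3 from beyond HOXB1, and another MTX2 from beyond HOXD1.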

How the data were processed

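The 4 Arima-HiC libraries were processed by the authors with Juicer 1.6 on hg19, per the labels, and the file headers name juicer_tools 1.19.02. The deposited loop lists (HiCCUPS, 5, 10 and 25 kb merged) hold whole-number counts of observed contacts at the peak pixel, expected contacts as a signal from 4 neighbourhoods, and FDR values as p-values. The deposited domain lists (Arrowhead, 10 kb) hold a corner score. The authors' 2 tables of unique loops come from pooled maps and were used for positions only. Other parameters are not given in the sources used here.

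HOX members, gene lists, windows and tests were chosen with earlier results of these data known. Groups followed the labels. Genes came from GENCODE 44 on GRCh37. Loop numbers, sizes and domains were set against each other in a two-sided exact permutation test with 6 arrangements of the 4 libraries. Loop strength was tested on the deposited counts with edgeR 4.0.16 (R 4.3.3), with the log donut expected value as offset, Benjamini-Hochberg adjustment and no filter. One loop of 2624 with a donut value of 0 was left out, and the SE is that implied by the p-value. DESeq2 1.42.0 was an alternative. On simulated data with 200 changed loops among the real ones, all changes had the right sign. No depth per library is in these lists, so precision rests on the contacts per loop, and intervals cover counting error only.

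Named were the HOX genes (1 item is not reported here), fixed neighbours, HOX loops identical in the 4 lists, up to 3 condition-only loops per cluster, the longest loop per condition, HOX loops of the unique tables and domains found in both libraries of a condition. Other domains, the 9 and 16 cofactor and regulator genes with non-overlapping counts, and the loops matched at 20 kb were named after their values were seen. Alternatives covered anchor width, FDR, window, matching, expected value, normalization, a contact minimum of 20 and leaving out each library. Same-numbered libraries did not deviate together (Pearson r of −0.0095 across 2623 loops, which are not independent replicates), so the numbers were not taken as pairs. Python 3.11.15, numpy 2.4.6 and pandas 2.3.3 were used.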

Additional observations from a re-analysis of the deposited data

Results flagged for a closer look

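Some measures moved in opposite directions at different clusters in every library, and the differences between clusters were not tested. The longest loop was 445 kb longer with THZ1 at HOXA and 37.5 kb longer at HOXC, but at HOXD it fell by 372 kb. The HOXC value rests on a 490 kb loop called in THZ1 1 only. In THZ1 2 the longest HOXC loop, of 425 kb, was the 420 kb vehicle loop called in 25 kb in place of 10 kb bins. Median loop size was 169 kb higher with THZ1 at HOXA and 47.5 kb higher at HOXB, while at HOXD it fell by 175 kb. Loops over 500 kb were 1.5 more with THZ1 at HOXA and at HOXD fell by 2. The share of loops with 5 kb anchors fell by 10.7 percentage points at HOXB and was 15.8 points higher at HOXD, where vehicle libraries held more 25 kb anchors. No group had the 4 libraries that a check for outlying libraries needs.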

How the results depend on the processing

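Of 127 alternative values for the main results, 90 were counted as the same. For changes this meant the same direction, or no change where the main value lay within the spread of the libraries. For counts it meant a count of similar size. With only 10 kb anchors the number of HOX loops was higher with THZ1 (log2 change 0.21, against −0.22) and their median size fell by 27.5 kb, and with only 25 kb anchors median size fell by 81.2 kb. HOX loops per 1000 loops had a log2 change of −0.64 with only 25 kb anchors and −0.12 with both anchors in the window, against 0.26.

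By cluster, loop number reversed at HOXA with only 10 kb anchors (0.58) and with all FDR values at or below 0.01 (0.14), at HOXB with only 10 kb (0.58) and 25 kb anchors (1.00), and at HOXD with only 5 kb anchors (0.13) and the FDR limit (0.09). Median size reversed at HOXA with 10 kb anchors (−185 kb), at HOXB with 5 kb anchors (−8.75 kb), at HOXC without THZ1 replicate 1 (−16.2 kb, in a range to 61.2 kb over the libraries left out) and at HOXD with 5 and 10 kb anchors (58.8 and 60.0 kb). The cause was not tested.

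With identical anchors 8 groups were vehicle-only and 7 THZ1-only, and with 50 kb 1 was THZ1-only. Leaving out 1 library, where 1 library is enough on its side, gave 6 to 13 vehicle-only and 5 to 7 THZ1-only groups. HOX genes with an anchor numbered 19 with 5 kb and 17 with 10 kb anchors, against 29. Genes with more loops in each vehicle library numbered 3 and 0 there, and with more in each THZ1 library 1 and 2, with 4 to 9 when 1 library was left out, the 9 being without vehicle replicate 1. The CTCF search found 122 anchors with NNAGNNGGC and 58 with 1 free letter. Cofactor genes counted by start site had a log2 change of 0.00.

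No HOX loop was called (0 of 7) with the horizontal or vertical expected value, with TMM and no expected value, with offset and TMM, with DESeq2 in either form, or when any 1 library was left out (0 to 0). Of the HOX loops, DESeq2 with expected values gave an adjusted p only to that of 495 kb from HOXD3, so the others could not be called there. Loops matched within 20 kb gave 5. The median HOX change was 0.12 with TMM and 0.14 with DESeq2 size factors. It was −0.24 with offset and TMM, where the median of all loops was 0.00. With TMM and no expected value, log2 changes were 0.36 for HOXA13 to JAZF1, 0.43 for COPZ2 to HOXB9, 0.12 and 0.20 for the HOXD13 loops of 730 and 410 kb, and 0.12 for the HOXD median. With DESeq2 size factors they were 0.37, 0.43, 0.14, 0.21 and 0.14. With offset and TMM, HOXA13 to JAZF1 had 0.22 and COPZ2 to HOXB9 0.16, and with the horizontal value HOXA13 to JAZF1 had 0.40 and the 410 kb HOXD13 loop 0.04. Leaving out 1 library gave HOX medians of −0.69 to −0.24. With the replicate block 3 of 7 HOX loops were lower, the loop beyond HOXB1 to HOXB3 being added, as it was when loops with any expected value of 0 were left out. The block changed no other HOX call.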
